A study of Mus musculus with 8 samples.

Results

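Receptors and signal transducers of the NODAL and activin branch were examined on both sides of the heart field in wild-type mouse embryos. The set held 10 genes, chosen by symbol, among the 48526 genes with a row of counts: the type I receptor genes *Acvr1b* and *Acvr1c*, the type II receptor genes *Acvr2a* and *Acvr2b*, the SMAD genes *Smad2*, *Smad3* and *Smad4*, and *Foxh1*, *Drap1* and *Tgif1*, whose products act on SMAD complexes in the nucleus. The study micro-dissected the heart field of single wild-type male C57bl6/J embryos at stage E8.5f, cut it at the midline and sequenced polyadenylated RNA of each side, to find genes that are unequal between left and right. There were 4 left and 4 right libraries, a pair from each of the embryos L29-3, L43-5, L46-8 and L49-3. The labels give no mutation and no treatment for either side. A replicate was an embryo, so n = 4 for each side.

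NODAL and activins are ligands of the TGF-beta superfamily. They bind a type II receptor, encoded by *Acvr2a* or *Acvr2b*, which phosphorylates a type I receptor, ALK4 (*Acvr1b*) or ALK7 (*Acvr1c*). NODAL also needs a co-receptor of the EGF-CFC family, such as CRIPTO or CRYPTIC. The type I receptor phosphorylates SMAD2 and SMAD3, which join SMAD4 and enter the nucleus, where FOXH1 brings the complex to target genes such as *Lefty2*. DRAP1 binds FOXH1 and restrains it, and TGIF1 is a corepressor recruited by SMAD2. In the early embryo NODAL signals in the left lateral plate mesoderm, which includes heart precursors, and LEFTY proteins antagonize it.

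The receptors come as related genes, and the count of a gene is useful only if its reads can be told from those of its relative. The 90 coding bases around the longest run that each receptor pair shares exactly are therefore shown, 5′ to 3′ on the coding strand, from the GENCODE vM21 transcripts of GRCm38, with capitals at the bases that differ. In *Acvr1b* the stretch covers coding positions 1387 to 1476 and lies in exons 8 and 9 of 9, at chr15:101209205-101210820 on the plus strand, an intron included in the interval. In *Acvr1c* it covers coding positions 1351 to 1440 in exons 8 and 9 of 9, at chr2:58274960-58280244 on the minus strand, again across an intron.
Acvr1b: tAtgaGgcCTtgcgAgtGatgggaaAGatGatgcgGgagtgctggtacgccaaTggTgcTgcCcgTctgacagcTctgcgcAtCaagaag
Acvr1c: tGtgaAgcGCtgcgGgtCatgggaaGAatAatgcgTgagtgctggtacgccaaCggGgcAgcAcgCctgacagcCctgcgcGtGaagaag
The pair differed at 18 of 90 bases, and the longest run of coding bases that they shared exactly was 17 bases.

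In *Acvr2a* the stretch covers coding positions 1121 to 1210 in exon 9 of 11, at chr2:48897015-48897104 on the plus strand. In *Acvr2b* it covers coding positions 1190 to 1279 in exon 8 of 10, at chr9:119432532-119432621 on the plus strand.
Acvr2a: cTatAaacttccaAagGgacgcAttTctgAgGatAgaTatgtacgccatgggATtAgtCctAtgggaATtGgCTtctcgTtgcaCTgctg
Acvr2b: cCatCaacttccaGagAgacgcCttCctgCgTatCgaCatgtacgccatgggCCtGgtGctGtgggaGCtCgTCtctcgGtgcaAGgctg
This pair differed at 23 of 90 bases, and its longest exact shared run was 14 bases.

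*Smad2* and *Smad3* shared a longest exact coding run of 23 bases. No transcripts of different members matched at 90% identity or more over at least 100 bases. The reads were 130 bases long per the labels, longer than each of these shared runs. Reads of 1 member that could also belong to another gene came from elsewhere: exons of *Acvr2a* shared 446 bases with *Orc4* on the opposite strand, a gene with 691 reads in all, exons of *Acvr1c* shared 168 bases with the antisense gene *Gm13544*, which had 1 read, and exons of *Drap1* shared 43 bases with an antisense gene of 10 reads. *Foxh1* lies 28 bases from *Kifc2* on the opposite strand, which had 343 reads. The use of strand in counting is not given in the sources used here, so reads in shared bases cannot be assigned to a strand. *Smad2* matched *Neurl3* and *Slc39a9* over 115 and 109 bases.

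In GRCm38 no member overlaps another. On the plus strand, *Acvr1b* (ENSMUSG00000000532) is at chr15:101174067-101213684, *Acvr2a* (ENSMUSG00000052155) at chr2:48814109-48903269, *Acvr2b* (ENSMUSG00000061393) at chr9:119402118-119434995 and *Smad2* (ENSMUSG00000024563) at chr18:76241580-76310963. On the minus strand, *Acvr1c* (ENSMUSG00000026834) is at chr2:58267453-58357895, *Smad3* (ENSMUSG00000032402) at chr9:63646767-63757994, *Smad4* (ENSMUSG00000024515) at chr18:73639009-73703780, *Foxh1* (ENSMUSG00000033837) at chr15:76668225-76669948, *Drap1* (ENSMUSG00000024914) at chr19:5422805-5424979 and *Tgif1* (ENSMUSG00000047407) at chr17:70844205-70853546. Counts were taken over whole genes.

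The libraries held 1147446 to 3520753 counts each after duplicate reads were removed, with a median of 1916167. The labelled tissue was checked against markers. All 8 markers of the second heart field were tested, and their summed level was 364 to 573 CPM, which is the count divided by library size, on the left side and 489 to 565 on the right. Markers of neighbouring tissues were also present, with 88.3 to 359 CPM on the left and 153 to 414 on the right for the neural tube list and 342 to 461 and 268 to 447 for the endothelium list. The surface ectoderm list summed to 489 to 839 CPM on the left and 605 to 733 on the right, although only 4 of its 8 markers were tested. Of all lists of markers examined, only the neural tube list had markers past the threshold of the study, 2 of 7 tested, against 3.05% of all genes tested. Embryo L49-3 stood apart in its summed cardiomyocyte markers on the left, at 268 CPM against 1119 to 2000 in the other left libraries, and in its juxta-cardiac field markers on both sides, at 28.6 and 34.4 CPM against 113 to 229 in the other libraries. The right library of L49-3 had 905 CPM of cardiomyocyte markers, against 738 to 2009 in the other right libraries. In such bulk samples, fewer cells that express a gene and less RNA per cell cannot be told apart.

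Transcripts of 9 of the 10 genes were detected in every library, and all 9 passed the filter of the study, which asks for 20 or more DESeq2-normalized counts in 4 or more libraries. The exception was *Acvr1c*. To compare genes with each other, levels were expressed as TMM-normalized CPM per kb of exons, all in this scale here. *Drap1* was highest at 47.7 ± 5.27, followed by *Foxh1* at 46.4 ± 4.45 and *Smad4* at 43.7 ± 3.18 (mean of 8 libraries ± SD of 4 embryo means). These 3 genes could not be ranked, since *Drap1* exceeded *Foxh1* in 4 of 8 libraries and *Foxh1* exceeded *Smad4* in 5 of 8 (exact sign-flip permutation test over 4 embryos, two-sided p = 0.875 and p = 0.5).

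Below them came *Smad3* at 22.1 ± 1.03, *Acvr2b* at 17.4 ± 1.36 and *Tgif1* at 11.9 ± 0.705. The lower part of the order was *Acvr1b* at 9.93 ± 1.02, *Acvr2a* at 7.48 ± 0.873 and *Smad2* at 6.54 ± 0.355. The median level of the genes tested was 10.8, so 6 members were above it and 3 of those tested below. From *Smad4* downwards each gene exceeded the next in 7 or 8 of 8 libraries. Down to *Smad2*, the log2 ratio of each neighbouring pair, averaged over both sides, favoured the higher gene in every embryo (exact permutation p = 0.125 for each). This is the smallest p that 4 embryos allow. In L46-8 the mean level of *Acvr1b*, at 11.19, was slightly above that of *Tgif1*, at 11.15. The order depended on the length used. With the longest transcript, *Smad4* was above *Foxh1*, at 47.9 against 46.4, and *Drap1* rose to 83.8. With the longest coding sequence, a setting chosen after seeing the data, *Foxh1* at 52.7 came below *Smad3* at 96.1 and *Tgif1* at 73.0, and *Smad2* at 41.0 rose above *Acvr1b* at 28.9 and *Acvr2a* at 27.6 in all 8 libraries. The mean of *Smad2* was thus below both receptor genes only with the lengths of merged exons and of the longest transcript.

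**Figure D1:**
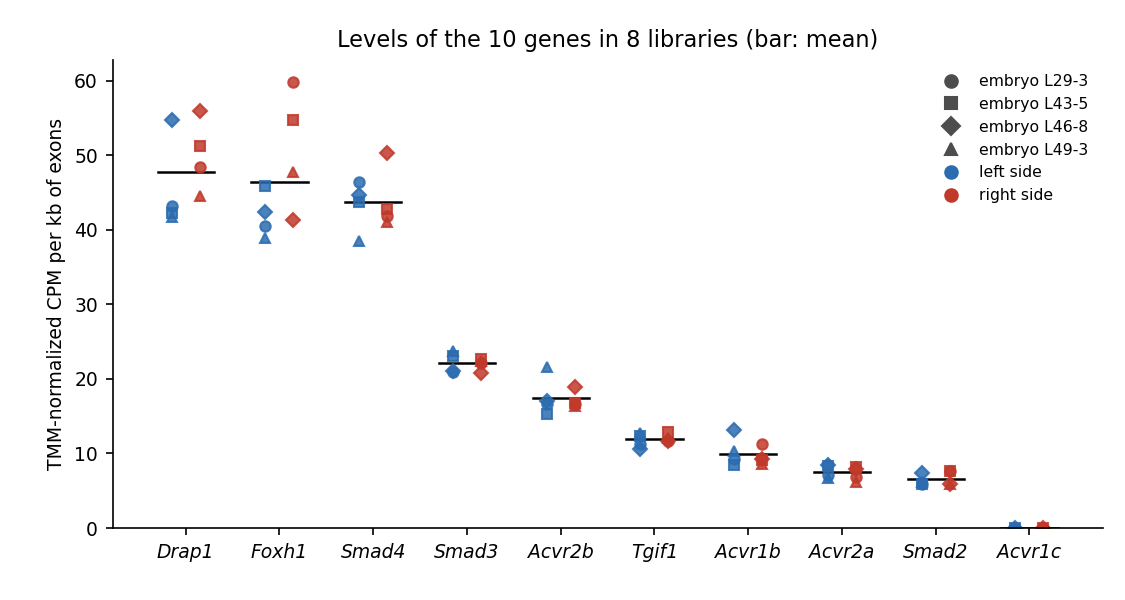
Levels of the 10 genes in TMM-normalized CPM per kb of exons on a linear axis, with left libraries in blue, right libraries in red, a marker shape for each embryo and a black bar at the mean of the 8 libraries. *Drap1*, *Foxh1* and *Smad4* lie together between 38.5 and 59.8, the other tested genes lie at 23.7 or below, and *Acvr1c* lies at the bottom.

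Of the type I receptors that NODAL and activins use, only *Acvr1b*, encoding ALK4, had more than 2 reads. *Acvr1b* had 719 reads over the 8 libraries and *Acvr1c*, encoding ALK7, had 2, of which 1 was in the left library of L29-3 and 1 in the right library of L43-5. The ratio of the read counts was 359.5, with an exact 95% interval of 99.2 to 2974, and 756 per length (209 to 6255). These intervals cover counting error only. A count of 0 allows up to 3 counts, which is 2.64 CPM in the smallest library and 0.845 in the largest, so that levels of *Acvr1c* up to this limit cannot be told from 0 in a library without a read.

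The NODAL and activin type I receptors were a minor part of their class, and the type II receptors a major part. *Acvr1b* and *Acvr1c* together made up 13.9% ± 1.31 (SD of 4 embryo means) of the summed level per kb of 7 type I receptor genes of the TGF-beta superfamily. The BMP receptor gene *Bmpr1a* at 30.5 and the TGF-beta receptor gene *Tgfbr1* at 21.8 exceeded *Acvr1b* in all 8 libraries. *Acvr1b* in turn exceeded *Acvr1*, which encodes ALK2, at 4.98, in all 8. In contrast, *Acvr2a* and *Acvr2b* made up 81.2% ± 3.30 of the sum of 5 type II receptor genes, above *Bmpr2* at 3.83 and *Tgfbr2* at 1.89 in all 8 libraries. ACVR2A and ACVR2B also serve BMP ligands, so their transcripts are not specific to NODAL and activins. *Acvr2b* alone was 69.8% ± 3.52 of the *Acvr2a* and *Acvr2b* sum, from 64.6% to 76.2% over the libraries. These shares depend on the length used, *Bmpr2* having 17983 bases of exons. Before division by length, *Bmpr2* was at 68.9 CPM, *Acvr2b* at 68.3 and *Acvr2a* at 42.5. With the longest coding sequence, a setting chosen after seeing the data, *Acvr2a* and *Acvr2b* made up 69.6% and *Acvr2a* exceeded *Bmpr2* in 7 of 8 libraries, at 27.6 against 22.1, while *Acvr1b* and *Acvr1c* made up 10.6% of their class.

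Among the receptor-regulated SMADs, *Smad2* and *Smad3* made up 51.4% ± 1.73 of the sum of 5 genes, next to the BMP transducers *Smad1*, *Smad5* and *Smad9*. Most of this came from *Smad3*, at 77.2% ± 1.49 of the *Smad2* and *Smad3* sum, with 74.2% in the lowest library and 79.7% in the highest. *Smad3* was also above *Smad5*, at 14.7, in all 8 libraries, whereas *Smad2* was below *Smad1*, at 9.17, in all 8. *Smad4*, the partner shared by both branches, was the highest SMAD gene in all 8 libraries. Each such order within a class held in all 4 embryos, which gives an exact permutation p = 0.125, the smallest possible. Some of the SMAD orders were set by the length: with the longest coding sequence, *Smad1* at 41.2 exceeded *Smad2* at 41.0 in 4 of 8 libraries and *Smad4* at 98.04 exceeded *Smad3* at 96.1 in 3 of 8. The share of *Smad2* and *Smad3* in the class was 50.8% there, and that of *Smad3* in their sum 70.1%. With the longest transcript these shares were 47.1% and 77.2%.

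**Figure D2:**
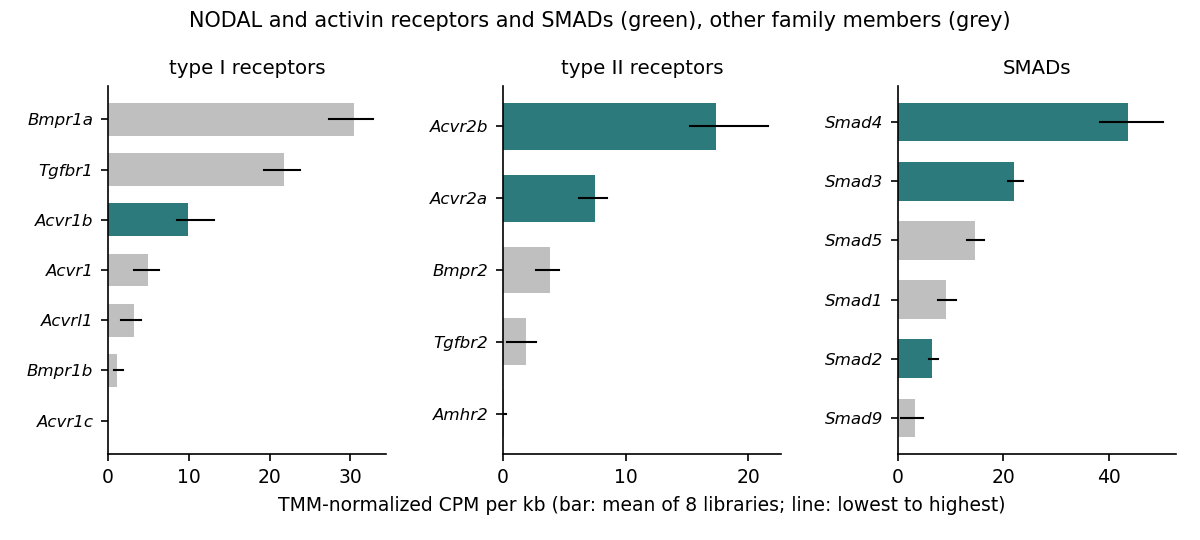
Mean level in TMM-normalized CPM per kb of exons for 7 type I receptor, 5 type II receptor and 6 SMAD genes, green for the genes of this set and grey for the other genes of the family, with a line from the lowest to the highest of 8 libraries. *Acvr1b* comes after *Bmpr1a* and *Tgfbr1* among type I receptors, *Acvr2b* and *Acvr2a* lead the type II receptors, and *Smad4* and *Smad3* lead the SMADs.

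The shares differed little between sides. *Acvr2a* and *Acvr2b* made up 80.0% of type II receptor transcripts on the left and 82.5% on the right, lower on the left in all 4 embryos (exact permutation p = 0.125, the smallest possible with 4 embryos). The share of *Acvr1b* and *Acvr1c* was 13.98% on the left against 13.8% on the other side, and that of *Smad2* and *Smad3* 51.3% and 51.5% (exact permutation p = 1.0 and p = 0.875). Ratios of related genes within a library, which no normalization changes, were compared as well. The mean log2 ratio of *Acvr2b* to *Acvr2a* was 0.66 in left and 0.71 in right libraries, a difference of -0.05 ± 0.232 (SD, n = 4 embryos). The difference was -0.10 ± 0.308 for *Smad2* to *Smad3* and 0.07 ± 0.465 for *Smad4* to *Smad2*. None of these 3 differences was larger than its spread between embryos (exact permutation p = 0.75, p = 0.625 and p = 0.875), and the sign of each changed when 1 embryo was left out. The difference for *Acvr1b* to *Acvr1c* was 0.36 ± 1.14 and rested on 0 or 1 *Acvr1c* read per library (exact permutation p = 0.625).

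The question of the study was whether expression differs between left and right. The receptors and SMADs tested had fitted log2 fold changes of left over right from -0.12 to 0.07, and equality of the sides was not tested. The single member past the threshold of the study was *Foxh1*, lower on the left. With edgeR's quasi-likelihood test and the embryo as a block, 0 of the 9 members tested had an adjusted p under 0.05, against 0.0103% of the 9744 genes tested, which is 1 gene, *Lefty2*. Before adjustment, p was 0.05 or less for 1 of 9 members and for 4.36% of all genes tested. The threshold of the study, a fold of 1.2 or more and p of 0.05 or less before adjustment, was passed by 1 of 9 members and by 3.05% of all genes tested. Of the 9, 4 had a positive and 5 a negative log2 fold change of left over right, with a median of -0.02, and the median of all genes tested was -0.00. The members' log2 fold changes ranged from -0.27 to 0.07 and their adjusted p-values, in edgeR, from 0.987 to 0.99995.

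The 95% intervals of the edgeR fit bound the differences that remain possible under that fit. Over the 9 genes the intervals of the log2 fold change reached from -0.54 to 0.41, so that a fold of 1.5 in either direction lay outside all 9 intervals, whereas a fold of 1.2 lay inside 7 of them. With DESeq2 the standard error was larger for each member, for *Foxh1* 0.201 against 0.121 in edgeR. Intervals were not computed for the alternative fits, so a fold of 1.5 is not excluded there. Between embryos, the SD of the left to right log2 ratio lay between 0.0358 and 0.353, and it was under the median of all genes tested, 0.255, for 6 of the 9. The direction was the same in all 4 embryos for 2 of 9 members, *Acvr2a* and *Drap1*, against 12.4% of all genes tested. The normalized counts of left and right overlapped for each of the 9 members, and they did not overlap for 2.51% of the genes tested.

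**Figure D3:**
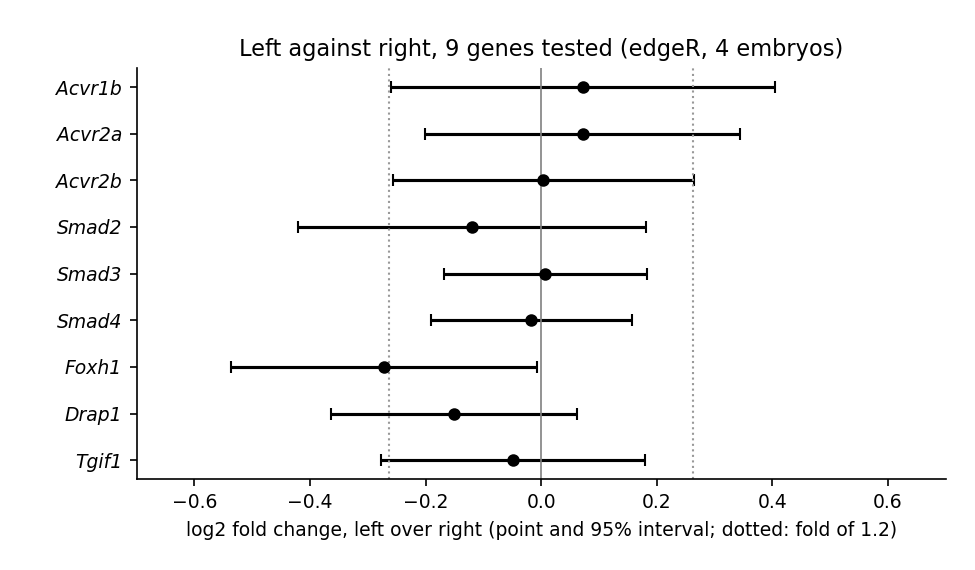
log2 fold change of left over right with its 95% interval for the 9 genes tested, from edgeR with the embryo as a block, with dotted lines at a fold of 1.2 in each direction. The interval of *Foxh1*, from -0.54 to -0.01, is the only one that leaves out 0.

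The type I receptor gene *Acvr1b* had DESeq2-normalized counts of 77.0, 71.1, 110 and 86.7 on the left and 94.1, 76.8, 77.4 and 71.5 on the right, for L29-3, L43-5, L46-8 and L49-3 in this order, which all lists of 4 values below follow. The left exceeded the right in L46-8 and L49-3 and fell short of it in the other embryos. The log2 fold change was 0.07 ± 0.152 (SE), with an unadjusted p of 0.642 in edgeR. Without L46-8 it turned to -0.07.

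The type II receptor gene *Acvr2a* had normalized counts of 77.0, 89.97, 91.2 and 72.8 on the left and 74.3, 87.5, 85.02 and 66.5 on the right. The left value was higher in all 4 embryos, but by a small and even amount, with log2 ratios from 0.04 to 0.12. The log2 fold change was 0.07 ± 0.125 (SE, edgeR), and the exact permutation p = 0.125 is the smallest that 4 embryos can give. *Orc4*, whose exons share bases with *Acvr2a*, had a log2 fold change of 0.07, and the part of shared reads in the value of *Acvr2a* was not tested. The other type II receptor gene, *Acvr2b*, had normalized counts of 123, 113, 127 and 161 on the left and 124, 124, 141 and 121 on the right. The left library of L49-3 was the highest of the 8, and in the other embryos the left was level with or below the right. The log2 fold change was 0.00 ± 0.119 (SE, edgeR), and -0.10 without L49-3. The left library of L49-3 was also the one with the lowest summed cardiomyocyte markers, and their part in this value was not tested.

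*Smad2*, encoding a receptor-regulated SMAD, had normalized counts of 98.9, 97.8, 122 and 102 on the left and 126, 128, 97.7 and 98.1 on the right. The right was higher in L29-3 and L43-5, the left in L46-8 and slightly so in L49-3, and the log2 fold change was -0.12 ± 0.138 (SE, edgeR). *Smad3*, encoding the other receptor-regulated SMAD of this branch, had normalized counts of 219, 243, 221 and 249 on the left and 233, 238, 218 and 234 on the right. It was the steadiest member over the 8 libraries, with a coefficient of variation of 4.96%, under the 6.78% that counting error alone would give for its counts. *Tgif1*, at 6.44% against 9.18%, and *Acvr2a*, at 11.3% against 11.8%, were also under their counting error. The log2 fold change of *Smad3* was 0.01 ± 0.0802 (SE, edgeR), with a 95% interval of -0.17 to 0.18.

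*Smad4*, encoding the common partner of the receptor-regulated SMADs, had normalized counts of 325, 308, 315 and 271 on the left and 295, 301, 353 and 288 on the right. The left was above the right in L29-3 and L43-5 and below it in the other embryos. Its log2 fold change was -0.02 ± 0.0799 (SE, edgeR), with an interval of -0.19 to 0.16. The intervals of *Smad3* and *Smad4* were the narrowest of the set and both left out a fold of 1.2.

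*Foxh1*, encoding the DNA-binding partner of SMAD2 and SMAD3, had normalized counts of 105, 119, 110 and 101 on the left and 155, 141, 107 and 123 on the right. The left libraries lay close together, and the right libraries were higher in L29-3, L43-5 and L49-3 but not in L46-8. The left mean was 108 ± 7.79 and the right mean 131 ± 21.1 (SD, n = 4), and the fitted level was 1.21-fold higher on the right. The log2 fold change of left over right was -0.27 ± 0.121 (SE), with an interval of -0.54 to -0.01, and in edgeR p was 0.0445 before and 0.987 after adjustment. Its p was number 371 of the 9744 genes in ascending order, and the exact permutation test over the 4 embryo ratios gave p = 0.25.

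Leaving out L29-3 reduced the *Foxh1* difference, to -0.17 on the log2 scale (edgeR, unadjusted p of 0.245). Without L43-5 it was -0.28 (unadjusted p of 0.0989) and without L49-3 -0.27 (0.0826), so that the size stayed while the call was lost with 3 embryos. Without L46-8 the log2 fold change was -0.37 with an unadjusted p of 0.0163. It passed the threshold of the study under 5 of 11 alternatives. The neighbouring gene *Kifc2* had a log2 fold change of -0.21 ± 0.211 (SE, edgeR), and its part in the *Foxh1* counts was not tested. The summed neural tube markers were lower on the left in 3 of 4 embryos as well, with a mean log2 ratio of -0.45 (exact permutation p = 0.375). Cardiomyocyte and paraxial mesoderm markers were too, with means of -0.41 and -0.18 (exact permutation p = 0.625 and p = 0.375). The other lists of markers were lower on the left in fewer embryos. By embryo, the log2 ratio of left to right of *Foxh1* was -0.56, -0.25, 0.03 and -0.30. It was 0.57, -0.75, -1.41 and -0.21 for the neural tube list. For the cardiomyocyte list it was -0.01, -0.59, 0.70 and -1.75. The part of these tissues in the *Foxh1* value was not tested.

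*Drap1*, encoding the inhibitor of FOXH1, had normalized counts of 142, 140, 181 and 138 on the left and 160, 169, 184 and 146 on the right. The right value was higher in all 4 embryos, with log2 ratios of left to right from -0.28 to -0.03. The log2 fold change was -0.15 ± 0.0973 (SE), with an interval of -0.36 to 0.06 and an unadjusted p of 0.147 in edgeR. The part of the neural tube, cardiomyocyte and paraxial mesoderm tissues in the *Drap1* value was not tested. *Tgif1*, encoding a SMAD corepressor, had normalized counts of 119, 131, 113 and 136 on the left and 124, 137, 124 and 128 on the right. The sides overlapped almost fully, and the log2 fold change was -0.05 ± 0.105 (SE, edgeR).

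**Figure D4:**
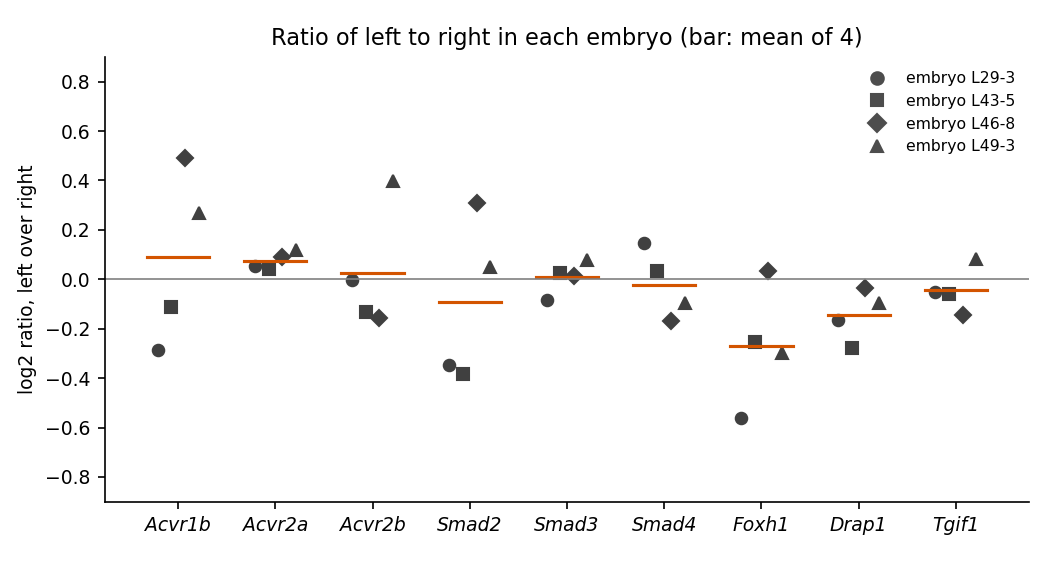
log2 ratio of left to right in TMM-normalized CPM with a pseudocount of 0.5 reads, for the 9 genes tested, with a marker shape for each embryo and an orange bar at the mean of 4. The points of *Acvr2a* lie together just above 0, those of *Drap1* all lie below 0, and those of *Acvr1b*, *Acvr2b*, *Smad2* and *Smad4* fall on both sides of it.

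Around these genes, 58 further genes of the pathway in 5 lists were examined, of which 41 were tested. Over all lists 24 had a positive and 17 a negative log2 fold change, with a median of 0.01, and 3 of 41 passed the threshold of the study, all higher on the left: *Lefty2*, *Fst* and *Skil*. Of all genes tested, 3.05% passed it and 1.63% passed it in this direction, and the counts of each list below are to be read against these shares. The log2 fold change was positive for 4734 and negative for 5010 of all genes tested. *Lefty2*, an antagonist and target of NODAL, had normalized counts of 52.7, 43.03, 105 and 305 on the left and 1.24, 0, 0 and 11.6 on the right. The fitted log2 fold change was 5.56 ± 0.374 (SE), with an adjusted p of 4.69e-05 in edgeR, and the adjusted p was 0.325 without the embryo as a block. The size is not a fixed fold, since 3 right libraries were at 0 or 1 read, and it was 7.24 without L49-3.

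*Fst*, encoding follistatin, which binds and blocks activins, had normalized counts of 202, 176, 145 and 249 on the left and 158, 130, 156 and 153 on the right. The left was higher in 3 of 4 embryos, and the log2 fold change was 0.34 ± 0.122 (SE; edgeR p of 0.0157 before and 0.987 after adjustment). *Fst* no longer passed the threshold without L43-5 (0.30, unadjusted p of 0.0651) or L49-3 (0.24, unadjusted p of 0.0889), or with DESeq2 (0.34, unadjusted p of 0.0602). *Skil*, encoding SnoN, a repressor of SMAD complexes, had normalized counts of 85.9, 74.3, 97.7 and 63.5 on the left and 52.0, 64.6, 71.1 and 51.5 on the right. The left was higher in 4 of 4 embryos, though the ranges of the sides overlapped, and the log2 fold change was 0.41 ± 0.146 (SE; edgeR p of 0.0159 before and 0.987 after adjustment). *Skil* no longer passed without L29-3 (0.31, unadjusted p of 0.0869) or with DESeq2 (0.42, unadjusted p of 0.101). The summed endothelium markers were also higher on the left in 4 of 4 embryos, by a mean log2 ratio of 0.12, and their part in these values was not tested.

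**Figure D5:**
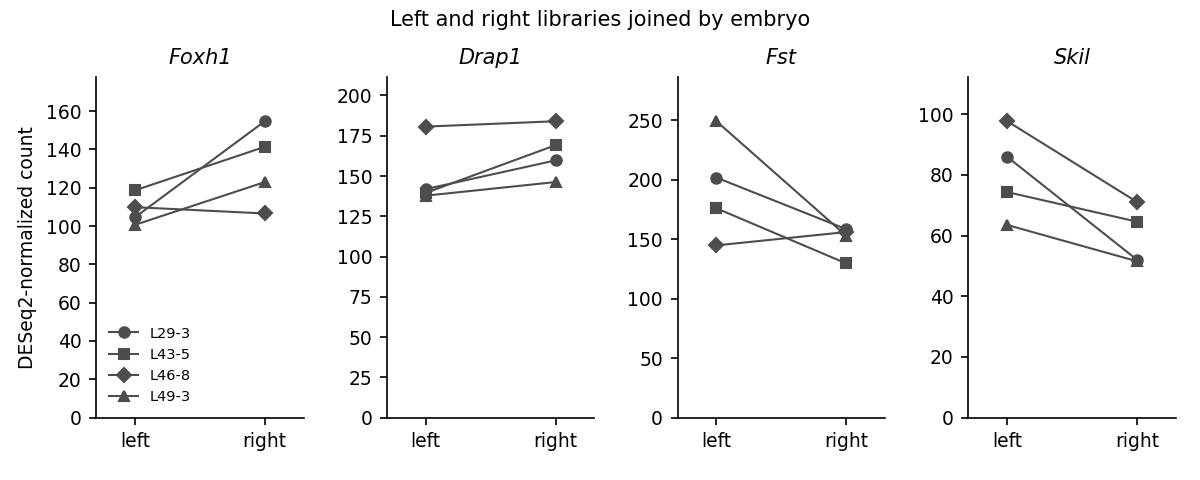
DESeq2-normalized counts of *Foxh1*, *Drap1*, *Fst* and *Skil* on the left and right, on linear axes from 0, with a line joining both sides of an embryo. The lines of *Drap1* rise and those of *Skil* fall from left to right in all 4 embryos, while L46-8 goes against the other embryos for *Foxh1* and *Fst*.

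In the list of ligands, co-receptors and convertases, 4 of 11 genes were tested, all 4 had a negative log2 fold change and 0 passed the threshold. The highest mean normalized count was that of *Furin*, encoding a proprotein convertase, with a log2 fold change of -0.13 ± 0.114 (SE, edgeR). Next was *Tdgf1*, encoding CRIPTO, with -0.36 ± 0.364 (SE, edgeR). Its mean of 33.7, against 33.6 for the convertase gene *Pcsk6*, was raised by the right library of L49-3, at 86.4 against 10.2 to 45.4 in the other libraries. The genes under the filter in this list were named after their values were seen: *Nodal* had 3 reads over the 8 libraries, *Gdf1* and *Gdf3* had 0, *Inhba* had 4, *Inhbb* had 2, *Inha*, encoding the inhibin alpha subunit, had 32, and *Cfc1*, encoding CRYPTIC, had 91. A count of 0 allows up to 3 counts per library.

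In the list of extracellular antagonists, 4 of 8 genes were tested, 3 had a positive log2 fold change, and *Lefty2* and *Fst* passed the threshold. Of the inhibitors and cofactors of SMADs, 19 of 20 were tested, 11 had a positive and 8 a negative log2 fold change with a median of 0.01, and *Skil* passed. The list of partners and targets of FOXH1 from the gastrula had 4 of 10 genes tested, 2 in each direction, with only *Lefty2* past the threshold. Of 13 other receptor and SMAD genes of the TGF-beta and BMP branches, 11 were tested, 9 had a positive and 2 a negative log2 fold change with a median of 0.07, and 0 passed. The most abundant there, *Bmpr1a* and *Tgfbr1*, had log2 fold changes of 0.03 ± 0.0727 and 0.07 ± 0.0769 (SE, edgeR).

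Finally, the genes most like a member in their course over the 8 libraries were listed, for the member of highest level in each of 3 roles. The 8 libraries come from only 4 embryos and are not 8 independent samples, so the correlations describe these libraries only. For *Acvr1b* they were *Mprip*, *Gm37494* and *Gas1*, with a Pearson correlation of log2 CPM of 0.937, 0.931 and 0.922 (n = 8 libraries). For *Acvr2b* they included *Pdp2* at 0.954 and *Exoc5* at 0.949, and for *Smad4* they were *Ankrd27* at 0.961, *Ddx3y* at 0.940 and *Grina* at 0.937.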

How the data were processed

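Paired reads were mapped by the authors to GRCm38 using HISAT2, duplicates were dropped because they were many, and reads per gene were counted using featureCounts. The deposited values are counts, not normalized. Versions of both tools are not given in the sources used here.

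Genes reaching 20 DESeq2-normalized counts in 4 or more of 8 libraries entered the comparison, made in edgeR 4.0.16 under R 4.3.3 (TMM, quasi-likelihood test, embryo as a block). The p-values were adjusted by Benjamini-Hochberg over all 9744 genes. Both sides of an embryo come from the same animal. Within embryos, the deviations of both libraries from their side's mean correlated at 0.164, 0.194, -0.01 and 0.444, against -0.389 to 0.257 between embryos. No libraries were as alike as sampling noise allows (smallest chi-square per degree of freedom 1.93). Single values were tested with exact two-sided sign-flip permutation over embryos (scipy 1.17.1), and DESeq2 1.42.0 and limma-voom (limma 3.58.1) were alternatives, besides other normalizations, filters and each embryo left out. The fits were tested on simulated counts with planted differences larger than those of the members and with no embryo effect. That test does not cover differences of the members' size. Lengths and sequences came from GENCODE vM21, and matches from blastn 2.17.0.

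The members and lists were chosen with earlier results of these data known. Named were all members, the list genes past the study's threshold (otherwise the 2 of highest count in a list) and the 3 genes most correlated with the highest member of each receptor type and of the SMADs. Other family genes are named for their class, outside this rule. A further target of NODAL and 1 gene that this rule names are not reported here.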

Additional observations from a re-analysis of the deposited data

Results flagged for a closer look

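In 3 of 36 groups of 4 libraries, 1 library stood far from the others (Dixon's test), and chance alone gives about 1 in 20 such groups. The normalized count of *Acvr2b* was 140.85 in the right library of L46-8, against 121 to 124 in the other right libraries. *Drap1* had 180.68 in the left library of L46-8, against 138 to 142 in the other left libraries, while its right library in the same embryo was also the highest of its side. *Lefty2* had 11.633 in the right library of L49-3, against 0 to 1.24 in the other right libraries, and the left library of that embryo was the highest of its side as well.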

How the results depend on the processing

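Under 11 alternatives of the fit, 93 of 99 log2 fold changes of members kept their direction, and 0 members had an adjusted p under 0.05, with adjusted p from 0.956 to 0.99999. The direction turned for *Acvr2b* with limma-voom (-0.018) and for 5 values in the fits that left out an embryo. There *Acvr1b* ranged from -0.074 (without L46-8) to 0.197, *Acvr2b* from -0.099 (without L49-3) to 0.063, *Smad3* from -0.012 (without L49-3) to 0.040, and *Smad4* from -0.070 to 0.038 (without L46-8), with 0.0032 without L49-3. The left minus right log2 ratios of *Acvr2b* to *Acvr2a*, *Smad2* to *Smad3* and *Smad4* to *Smad2* ranged from -0.159 to 0.016, from -0.234 to 0.0012 and from -0.070 to 0.255 with an embryo left out, 0.016 being the value without L46-8, 0.0012 that without L43-5, and -0.070 and -0.044 those without L29-3 and L43-5. The members past the threshold of the study numbered 0 in place of 1 with library size alone, with no filter and with DESeq2, and 0 to 1 with an embryo left out. Among all genes, an adjusted p under 0.05 was reached by 34 with no filter, 0 with at least 10 counts in every library, 2 with DESeq2 and 1 to 5 with an embryo left out. The threshold of the study was passed by 687 genes with no filter and 59 with DESeq2 in place of 297, and by 6 and 1 list genes in place of 3, and by 2 to 7 list genes with an embryo left out (7 without L46-8). Without the embryo block that pairs the sides, 0 genes had an adjusted p under 0.05 and 233 passed the threshold of the study, with *Foxh1* at -0.28 (unadjusted p of 0.0408, edgeR), and no call of a member changed. The filter of at least 10 counts in every library drops *Lefty2*, whose lowest count was 0. The causes of the other changes were not tested. *Acvr1c*, *Nodal* and the other genes with few reads had too few for a difference between sides to be detectable. The study describes *Nodal* as already off at stage E8.5f.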
